A study of Mus musculus with 36 samples.

Results

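The genes described here are 41 genes of the integrated stress response and of amino acid supply, taken from the 27179 mouse genes of the count table by name. They comprise 12 regulators and effectors of the stress response, 6 genes of serine and one-carbon metabolism, 4 other genes of amino acid and carbon synthesis, 7 amino acid transporters and 12 cytosolic aminoacyl-tRNA synthetases. The rule lists genes by name and uses no measured value, but the members were chosen with earlier results of these data known. Their transcripts were counted in cultures of the mouse lymphoma lines AH47A, 287 and 621, all 3 of Em-myc background, in which a Myc transgene under an immunoglobulin enhancer drives B cell lymphoma. In each line a negative control or 1 of 5 mutant TRP53 constructs (V170M, I192S, R246Q, R270H or G280) was present; the series' design text calls the proteins human, and the labels of the samples name no species for them, and cells were taken without treatment or treated with nutlin-3a. The 36 libraries thus form 12 groups of construct and treatment with 1 library per line (n = 3 per group), or 6 libraries of different constructs per line and treatment. Treated cultures received 5 µM nutlin-3a, which frees p53 from its inhibitor MDM2, for 12 hours together with 25 µM of the caspase inhibitor QVD-OPH. The labels do not say whether untreated cultures also received QVD-OPH, so effects of nutlin-3a and of QVD-OPH cannot be told apart. No separate repeat of a construct within a line is labelled, so p-values measure the spread between these libraries.

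The integrated stress response starts when a kinase phosphorylates the translation factor eIF2, which lowers protein synthesis in general while the transcription factor ATF4 is translated more. ATF4, often paired with C/EBP factors, then induces genes that supply the cell with amino acids: enzymes that make asparagine, serine and one-carbon units, transporters, and the synthetases that load amino acids onto tRNA. Much of ATF4 activity is set by translation, so the Atf4 transcript is only part of its control. Under prolonged stress the same program induces CHOP (the product of Ddit3) and TRIB3, which are linked to cell death. Fast-growing Myc-driven lymphoma cells have a high demand for amino acids.

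The libraries held 5404113 to 10718302 counts. B lineage markers were all detected in every line and treatment (0 of 10 at 0). Their summed level moved with nutlin, from 3596 to 3762 CPM (counts per 1000000 counts of the library) down to 2991 to 3332 in AH47A and from 3504 to 3838 up to 3976 to 4458 in 287, and was 4570.5 to 5467 and 4071 to 4983 in 621, which overlapped. Its part in the responses described here was not tested. Trp53 was higher in the mutants than in the control under nutlin by 1.44 ± 0.19 (log2 ± SE), and Cdkn1a, a p53 target, rose in every line by 8.27, 6.58 and 5.34 (AH47A, 287 and 621). The 41 genes took a median of 0.754%, 0.705% and 0.760% of all counts in the untreated libraries of AH47A, 287 and 621, and 0.892%, 1.33% and 1.00% in the nutlin libraries. Of the 41, 39 could be tested. Vldlr, a lipoprotein receptor, had 1 count in all 36 libraries, and Slc7a11, which imports cystine, did not exceed 1.75 CPM. A further 4 tested genes averaged under 10 CPM: Nupr1, Slc7a3, Aldh1l2 and Chac1. Nupr1 reached the filter of 1.25 CPM in 0 untreated and 6 nutlin libraries, Slc7a3 in 1 and 13, Aldh1l2 in 4 and 10, Chac1 in 11 and 18, Trib3 in 13 and 18 and Atf3 in 6 and 18. Genes that pass mainly through the nutlin libraries had to differ between treatments, so counts are also given for the 35 members with a mean of at least 10 CPM. That mean is over all 36 libraries, nutlin ones included, and Atf3 and Trib3 stay among the 35. The counts for the 35 therefore do not remove this selection.

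ATF4 and its C/EBP partners bind a composite element, TGATGNAA, of which TGATGCAA is a well-known form. RefSeq promoter windows of GRCm38.p6 (250 bases before to 50 after the start) were found for 32 of the 41 genes and searched on both strands. TGATGNAA, which includes every TGATGCAA, occurred in 13 of the 32 (40.6%) and in 4.51% of the 27025 genes with a window. TGATGCAA alone occurred in 9 (28.1%) and in 1.03%. The cAMP-response element TGACGTCA occurred in 1 (3.12%, the Ppp1r15a promoter) and in 2.03% of all genes, and the MYC E-box CACGTG in 4 (12.5%: Nupr1, Aars, Iars and Tars) and in 8.09%. The 250 bases before the start are shown for 6 members with a match and for Ddit3, which holds none, because these are the genes or roles whose levels are described next. Matches to TGATGNAA on either strand are in capitals, so that TTGCATCA is TGATGCAA read on the other strand, and each sequence runs 5′ to 3′ on the strand of its gene. Their positions are Atf3 chr1:191183334-191183583 (minus strand), Chac1 chr2:119350992-119351241 (plus strand), Nupr1 chr7:126625471-126625720 (minus strand), Asns chr6:7693210-7693459 (minus strand), Pck2 chr14:55540016-55540265 (plus strand), Tars chr15:11399659-11399908 (minus strand), Ddit3 chr10:127290543-127290792 (plus strand).
Atf3: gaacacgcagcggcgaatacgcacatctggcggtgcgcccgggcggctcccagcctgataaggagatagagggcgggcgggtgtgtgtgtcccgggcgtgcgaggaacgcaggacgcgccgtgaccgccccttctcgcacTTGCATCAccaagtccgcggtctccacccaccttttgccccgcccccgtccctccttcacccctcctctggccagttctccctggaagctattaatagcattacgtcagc
Chac1: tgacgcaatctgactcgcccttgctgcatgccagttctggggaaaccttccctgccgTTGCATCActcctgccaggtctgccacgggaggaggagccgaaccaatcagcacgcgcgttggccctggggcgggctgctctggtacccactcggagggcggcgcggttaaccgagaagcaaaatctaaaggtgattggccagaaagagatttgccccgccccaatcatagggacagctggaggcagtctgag
Nupr1: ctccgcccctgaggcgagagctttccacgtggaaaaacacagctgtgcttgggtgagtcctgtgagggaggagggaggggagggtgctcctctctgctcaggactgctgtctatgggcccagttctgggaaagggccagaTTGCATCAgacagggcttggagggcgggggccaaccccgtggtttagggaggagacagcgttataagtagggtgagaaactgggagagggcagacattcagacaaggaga
Asns: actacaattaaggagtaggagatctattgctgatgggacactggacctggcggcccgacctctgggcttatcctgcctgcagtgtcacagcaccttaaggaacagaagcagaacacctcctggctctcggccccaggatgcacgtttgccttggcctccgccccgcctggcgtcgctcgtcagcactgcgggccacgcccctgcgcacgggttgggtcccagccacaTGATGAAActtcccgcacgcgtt
Pck2: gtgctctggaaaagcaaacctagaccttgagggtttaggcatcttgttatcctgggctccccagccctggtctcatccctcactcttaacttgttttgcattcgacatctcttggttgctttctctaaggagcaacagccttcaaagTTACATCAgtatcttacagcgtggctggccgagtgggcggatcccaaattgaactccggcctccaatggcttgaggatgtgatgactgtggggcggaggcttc
Tars: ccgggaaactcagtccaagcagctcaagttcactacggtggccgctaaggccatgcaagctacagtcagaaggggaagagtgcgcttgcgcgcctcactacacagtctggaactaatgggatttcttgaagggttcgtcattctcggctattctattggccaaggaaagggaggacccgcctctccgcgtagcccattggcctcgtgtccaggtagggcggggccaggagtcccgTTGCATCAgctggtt
Ddit3: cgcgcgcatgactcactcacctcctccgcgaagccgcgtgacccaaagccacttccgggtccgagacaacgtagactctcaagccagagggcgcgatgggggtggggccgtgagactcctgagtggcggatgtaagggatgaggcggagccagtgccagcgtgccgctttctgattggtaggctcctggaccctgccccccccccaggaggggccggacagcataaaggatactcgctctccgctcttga
The match began 110 bases before the start in Atf3, 193 in Chac1, 110 in Nupr1, 23 in Asns, 103 in Pck2 and 15 in Tars. Other matches lay 66 and 47 bases before the start of Slc7a11, 112 before that of Aars, 30 before that of Gars and 200 before that of Vldlr, and after the start in Yars, Iars, Trib3 and Aars. Wars, Cth, Slc7a5, Eif4ebp1, Lars, Nars, Slc7a3, Aldh1l2 and Cars were not searched. A match is a description of letters and was not tested as a binding site.

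In the same annotation, the transcribed regions of the genes described most closely are Atf4 at chr15:80255184-80257545 (NCBI gene 11911), Ddit3 at chr10:127290793-127296291 (NCBI gene 13198), Trib3 at chr2:152337425-152344060 (NCBI gene 228775), Asns at chr6:7675165-7693209 (NCBI gene 27053), Slc6a9 at chr4:117835258-117869305 (NCBI gene 14664), Slc3a2 at chr19:8706882-8723369 (NCBI gene 17254), Gpt2 at chr8:85492576-85528902 (NCBI gene 108682), Aars at chr8:111027778-111055569 (NCBI gene 234734), Cars at chr7:143557230-143600090 (NCBI gene 27267) and Psat1 at chr19:15905123-15925059 (NCBI gene 107272).

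Before nutlin, levels of many of these genes differed between lines, as did those of most genes tested. In 287, levels per length, as the median RPKM (CPM per 1000 bases of gene length) of 6 libraries, ran from under 1 for Atf3, Trib3, Chac1, Slc7a3, Aldh1l2, Slc7a11, Nupr1 and Vldlr to 447 for Shmt2, the mitochondrial serine hydroxymethyltransferase. Differences between untreated lines were called for 25 of 39 tested members between 287 and AH47A (6 higher, 19 lower in 287, where 58.8% of all genes were called, 29.7% higher and 29.2% lower), for 19 between 621 and AH47A (10 higher, 9 lower in 621, where 58.6% were called, 29.1% higher and 29.6% lower) and for 30 between 621 and 287 (23 higher, 7 lower in 621, where 60.4% were called, 29.7% higher and 30.7% lower). Slc6a9, the glycine transporter GLYT1, stood apart: its lowest, median and highest levels were 3.65, 5.68 and 9.36 CPM in 287, against 40.0, 46.0 and 50.8 in AH47A and 29.0, 33.3 and 37.7 in 621. The groups did not overlap, and the level in 287 was lower than in AH47A by a log2 of -2.95 ± 0.16 (edgeR adjusted p = 6.73e-15). Of Slc6a9's exonic bases, 38.8% overlap Ccdc24 and 13.9% overlap Gm17114, both on the opposite strand. Ccdc24 had 36 counts in all libraries, and the part of these overlaps in the Slc6a9 level was not tested. Psat1, which transfers an amino group in serine synthesis, was also low in 287, at 299 to 341 CPM against 451 to 729 in AH47A and 633 to 762 in 621 (log2 1.09 ± 0.07 between 621 and 287, adjusted p = 3.69e-13). Phgdh, the first enzyme of that pathway, was higher in 621 (209 to 243 CPM) than in 287 (105 to 125) by 0.90 ± 0.07 (adjusted p = 8.62e-12). Wars, the tryptophan synthetase, was higher in 621 by 0.83 ± 0.06 over AH47A (adjusted p = 2.43e-12).

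To ask how the stress program moved when p53 was activated, nutlin and untreated libraries were compared within each line, over the 6 constructs. Nutlin raised most of these genes in every line, most in 287. In AH47A, 29 of 39 tested members rose and 2 fell, where 43.6% of all 12321 tested genes were called (21.4% higher, 22.2% lower). In 287, 36 rose and 1 fell, where 71.9% were called (36.2% higher, 35.7% lower). In 621, 31 rose and 1 fell, where 55% were called (26.4% higher, 28.6% lower). Among the 35 members of at least 10 CPM, 26, 32 and 27 rose and 2, 1 and 1 fell. The median log2 change over the tested members was 0.28, 1.26 and 0.62 in AH47A, 287 and 621, against -0.01, 0.00 and -0.03 over all tested genes. Of the 39, 27 members rose in each of the 3 lines (24 of the 35 of at least 10 CPM), none fell in each, and Iars and Shmt2 were called higher in one line and lower in another. Levels are relative within a library, and in these bulk samples fewer cells of a type and less RNA per cell cannot be told apart.

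Stress regulators had the largest median changes of the 5 roles, 1.49, 2.71 and 1.82 in AH47A, 287 and 621. All 11 tested rose in AH47A and 287, and 10 rose in 621. Without Nupr1, which reached the filter only under nutlin and in no library of 621, these were 10, 10 and 9 of 10. In 621, Eif4ebp1, an inhibitor of cap-dependent translation, was not called as a mean of 6 constructs (log2 -0.02 ± 0.09, adjusted p = 0.866). There it changed by 0.59 in the control and by -0.49, 0.37, -0.27, -0.46 and 0.05 in G280, I192S, R246Q, R270H and V170M. Atf4 itself rose modestly as a mean of 6 constructs, and by a log2 of 0.48, 1.26 and 0.98 in the control alone (AH47A, 287 and 621). In 287 it went from 139.9, 150.4 and 164 CPM (lowest, median, highest of 6) to 252, 309 and 373, so the groups did not overlap (2.05-fold, log2 1.03 ± 0.06, adjusted p = 1.32e-14). In AH47A it went from 188, 200.6 and 229.6 to 215, 227 and 271, which overlapped (log2 0.20 ± 0.06, adjusted p = 0.00955), and in 621 from 181, 191.7 and 213 to 228, 269 and 358 (log2 0.51 ± 0.06). Ddit3, the gene of CHOP, went from 8.25, 8.43 and 12.0 to 77.1, 97.8 and 112 CPM in 287 (10.6-fold, log2 3.40 ± 0.18), from 5.74, 7.25 and 8.93 to 20.3, 30.2 and 47.7 in AH47A (2.0 ± 0.19) and from 3.91, 4.75 and 5.37 to 11.8, 22.6 and 39.7 in 621 (2.34 ± 0.21). The groups of Ddit3 did not overlap in any line. Of its exonic bases, 7.64% overlap Mars1 on the opposite strand. Trib3, the gene of a pseudokinase that restrains ATF4 and AKT, went from 0.304, 0.627 and 1.43 to 39.3, 59.4 and 78.0 CPM in 287 (log2 6.21 ± 0.48). It went from 1.56, 2.24 and 2.68 to 13.2, 17.3 and 42.0 in AH47A (3.19 ± 0.35) and from 1.33, 1.90 and 3.17 to 12.8, 39.0 and 79.3 in 621 (4.27 ± 0.33), again without overlap.

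Atf3, a stress-induced transcription factor that p53 is also known to induce, had the largest response of the named members in AH47A and 287, while in 621 Trib3 and Chac1 rose further. It went from 0.152, 0.322 and 0.881 to 51.9, 72.2 and 102.5 CPM in 287 (log2 7.50 ± 0.46, adjusted p = 1.68e-18). It went from 0.547, 0.851 and 1.57 to 15.8, 21.9 and 39.3 in AH47A (4.61 ± 0.34) and from 0.912, 1.73 and 3.65 to 6.03, 13.2 and 15.2 in 621 (2.73 ± 0.26). Its untreated and nutlin libraries did not overlap in any line. Atf5, a relative of ATF4 linked to mitochondrial stress, rose from 3.86, 4.36 and 5.94 to 19.9, 26.7 and 40.2 CPM in 287 (2.62 ± 0.15). It was at 6.46, 8.80 and 11.3 untreated and 8.90, 10.4 and 19.2 after nutlin in AH47A (0.42 ± 0.14), and at 3.26, 3.92 and 5.09 and 4.49, 6.15 and 7.38 in 621 (0.62 ± 0.17), with overlap in both. In AH47A its call was lost without any 1 of 4 libraries (adjusted p = 0.0541 to 0.0811 without the nutlin control, G280 nutlin, R246Q untreated or V170M untreated). Chac1, a glutathione-degrading enzyme, rose from 0.608, 1.43 and 3.74 to 10.7, 13.4 and 16.3 CPM in 287 (3.11 ± 0.23) and from 0.521, 1.10 and 2.07 to 6.78, 9.60 and 14.6 in 621 (3.11 ± 0.25). In AH47A it began higher, at 1.78, 5.11 and 6.81, and overlapped the 3.89, 7.36 and 11.2 after nutlin (0.72 ± 0.20, adjusted p = 0.00364, and 0.0947 with only the libraries of that line). Ppp1r15a, which targets the phosphatase that reverses eIF2 phosphorylation, rose by 1.81 ± 0.18, 2.71 ± 0.16 and 1.56 ± 0.17 in AH47A, 287 and 621. Cebpb and Cebpg, partners of ATF4, rose in every line, by 1.49, 2.29 and 1.82 (Cebpb) and 0.48, 1.68 and 0.68 (Cebpg). Nupr1, a stress-induced chromatin protein, was at 0 to 0.255 CPM in the untreated libraries and at 0 to 2.36 in the nutlin libraries, and its size of change is not given.

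**Figure D1:**
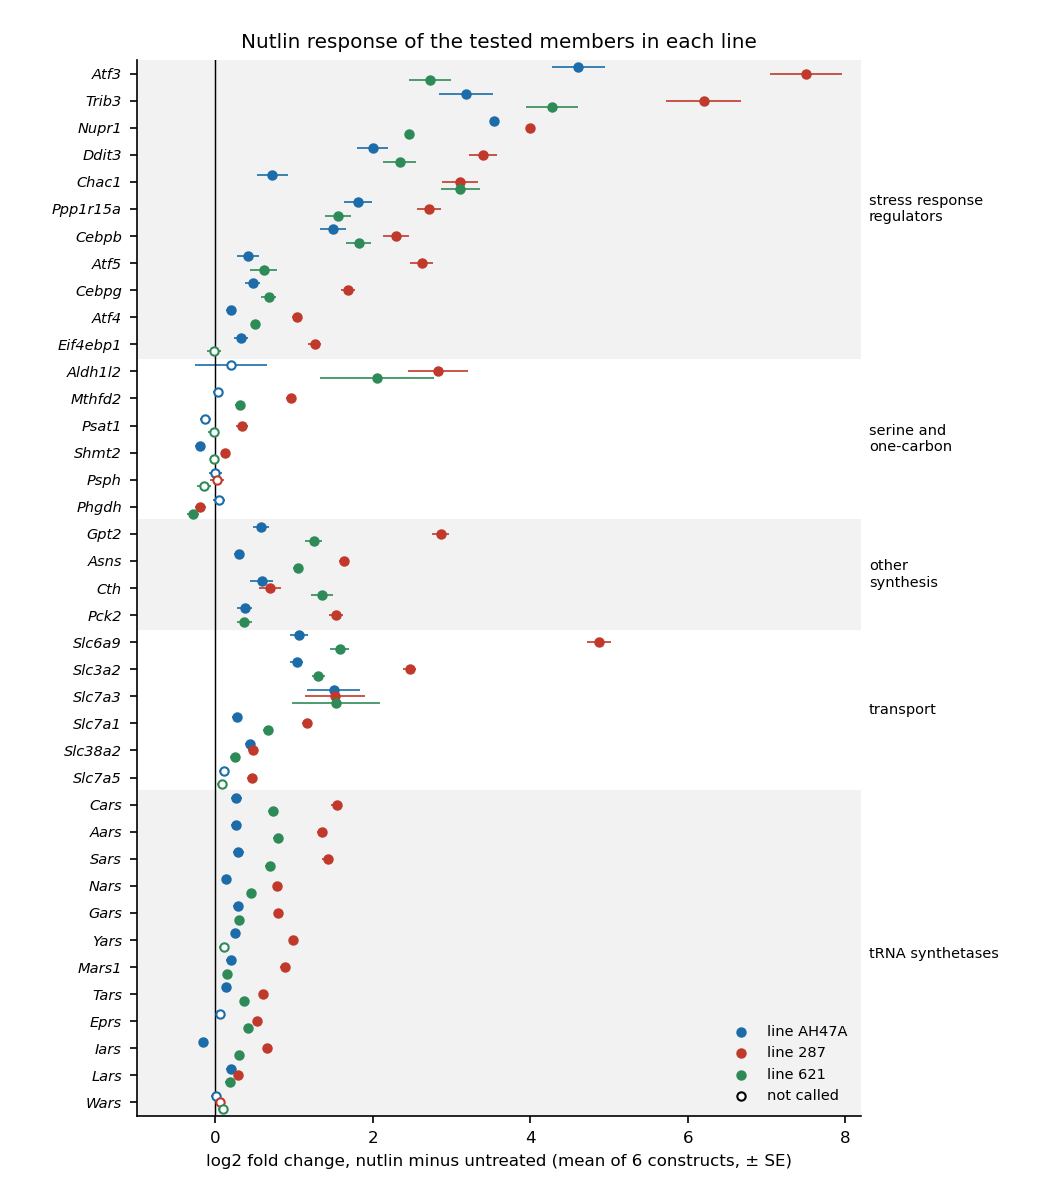
Nutlin response (log2 fold change, mean of 6 constructs, ± SE) of the 39 tested members in lines AH47A, 287 and 621, grouped by role, with open circles where the adjusted p was not under 0.05. Nupr1 is drawn without an SE. Points of line 287 lie furthest to the right for most members, up to 7.50 for Atf3. Phgdh, Psph and Psat1 lie between -0.28 and 0.34, and Aldh1l2 reaches 2.83 in 287.

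Amino acid and carbon synthesis genes outside the serine pathway rose in all lines. All 4 rose in each line, with medians of 0.48, 1.58 and 1.15 in AH47A, 287 and 621, against 0.02, 0.23 and -0.02 for the serine and one-carbon genes. Asns, asparagine synthetase, went from 139, 143 and 156 to 346, 461 and 549 CPM in 287 (3.11-fold, log2 1.64 ± 0.06, adjusted p = 1.49e-18). It went from 146, 165 and 185 to 180.0, 197 and 259.7 in AH47A, which overlapped (0.30 ± 0.06), and from 154, 162 and 195 to 278, 341 and 456 in 621 (1.05 ± 0.06). Gpt2, mitochondrial alanine aminotransferase, rose 7.26-fold in 287 (11.04, 12.98 and 16.1 to 80.1, 93.1 and 122 CPM). It went from 27.4, 29.3 and 32.8 to 38.9, 41.6 and 63.2 in AH47A (0.58 ± 0.10) and from 23.7, 26.5 and 30.2 to 37.1, 63.0 and 101.7 in 621 (1.25 ± 0.10), without overlap in any line. Pck2, mitochondrial phosphoenolpyruvate carboxykinase, rose by 0.38 ± 0.09, 1.53 ± 0.09 and 0.37 ± 0.09, and Cth, which makes cysteine from cystathionine, by 0.59 ± 0.15, 0.70 ± 0.14 and 1.36 ± 0.14, furthest in 621 (F test between lines, adjusted p = 0.00343).

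Of the 6 serine and one-carbon genes, 0 rose in AH47A, 4 in 287 and 2 in 621, and 1 fell in each line. Psat1 was 451, 625 and 729 CPM untreated and 441, 580.4 and 629.9 after nutlin in AH47A, and 633, 679 and 762 against 643, 667 and 735 in 621. In 287 it rose from 299, 322 and 341 to 384, 405 and 437 (log2 0.34 ± 0.07, adjusted p = 0.000173), and the groups did not overlap there. Phgdh fell in 287 (-0.19 ± 0.07, adjusted p = 0.024) and in 621 (-0.28 ± 0.07, adjusted p = 0.0013), and Psph, the last enzyme of the pathway, was not called in any line. Shmt2 fell in AH47A (-0.20 ± 0.05, adjusted p = 0.0039) and rose in 287 (0.13 ± 0.05, adjusted p = 0.0349). Mthfd2, the mitochondrial folate enzyme, rose from 138, 144 and 149 to 230.2, 281 and 322 CPM in 287 (0.96 ± 0.06) and from 152, 165 and 187 to 178, 202 and 261 in 621 (0.31 ± 0.06). In AH47A it was at 138, 150.3 and 167 untreated and 141, 152 and 175 after nutlin (0.03 ± 0.06). Aldh1l2, another mitochondrial folate enzyme, rose from 0.813, 1.14 and 2.201 to 6.499, 10.4 and 12.4 CPM in 287 (2.83 ± 0.38) and from 0, 0.191 and 0.521 to 0, 1.01 and 2.59 in 621 (2.05 ± 0.72), and was at 0.525, 0.888 and 2.55 against 0.941, 1.23 and 2.57 in AH47A. Of its exonic bases, 17.3% overlap D10Wsu102e on the opposite strand, which fell in 287 (-0.62 ± 0.07).

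Transporters rose with the stress regulators. Of 6 tested, 5, 6 and 5 rose in AH47A, 287 and 621, and none fell, with medians of 0.74, 1.34 and 0.99. Slc6a9 changed most in 287, from 3.65, 5.68 and 9.36 to 127, 174 and 245 CPM in 287 (29.3-fold, log2 4.87 ± 0.16, adjusted p = 1.17e-19). It went from 40.0, 46.0 and 50.8 to 80.9, 88.2 and 160.0 CPM in AH47A (1.06 ± 0.12) and from 29.0, 33.3 and 37.7 to 56.4, 97.2 and 172 in 621 (1.58 ± 0.12). The line with the lowest untreated level thus had the highest nutlin median, and no groups of a line overlapped. Slc3a2, the heavy chain shared by several amino acid exchangers, went from 178, 182 and 189 to 803, 967 and 1317 CPM in 287 (5.53-fold, 2.47 ± 0.08), from 191, 225 and 257 to 408, 441 and 638 in AH47A (1.04 ± 0.08) and from 199, 208 and 237 to 378, 516 and 719 in 621 (1.31 ± 0.08). Slc7a5, the light chain LAT1 that pairs with it, rose in 287 (0.47 ± 0.06) and was at 0.11 ± 0.06 and 0.08 ± 0.06 in AH47A and 621, not called (F test between lines, adjusted p = 0.000357). Slc7a1, a carrier of arginine and lysine, rose by 0.28, 1.16 and 0.67, and Slc38a2, which imports small neutral amino acids, by 0.44, 0.47 and 0.25. Slc7a3, a further arginine carrier, rose by 1.50 ± 0.34, 1.52 ± 0.38 and 1.54 ± 0.56 at levels no higher than 5.76 CPM. In 621 it was at 0 to 0.379 CPM untreated, 2.59 in the nutlin control and 0.261 to 0.738 in the 5 nutlin mutants, so the groups overlapped and 1 library stood apart.

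The synthetases moved by smaller amounts. Of 12, 9 rose and 1 fell in AH47A, 11 rose in 287 and 10 rose in 621, with medians of 0.20, 0.79 and 0.33. Cars, the cysteine synthetase, went from 102.1, 104 and 114 to 263, 317 and 342 CPM in 287 (2.91-fold, log2 1.54 ± 0.07, adjusted p = 1.27e-17), from 123, 137 and 151 to 145, 156 and 217 in AH47A (0.27 ± 0.07) and from 111, 120.1 and 143 to 165, 199.9 and 272 in 621 (0.73 ± 0.07). Aars, the alanine synthetase, went from 232, 243 and 268 to 521, 650.4 and 697.5 CPM in 287 (1.35 ± 0.06), from 268, 294 and 298 to 296, 350.5 and 433 in AH47A (0.27 ± 0.06) and from 258, 260.5 and 288 to 379.6, 457 and 575 in 621 (0.79 ± 0.06). Of Aars's exonic bases, 23.1% overlap Exosc6 on the same strand, which fell in 287 (-0.77 ± 0.08) and 621 (-0.52 ± 0.08). Sars rose by 0.29, 1.43 and 0.69, and Yars, Mars1, Gars, Nars, Iars, Tars and Eprs reached 0.99, 0.89, 0.80, 0.79, 0.66, 0.60 and 0.53 in 287. Iars, the isoleucine synthetase, fell in AH47A (-0.16 ± 0.05, adjusted p = 0.0137). Wars was not called in any line (0.01 ± 0.06, 0.07 ± 0.06 and 0.09 ± 0.06), and Lars rose by 0.29 at most.

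**Figure D2:**
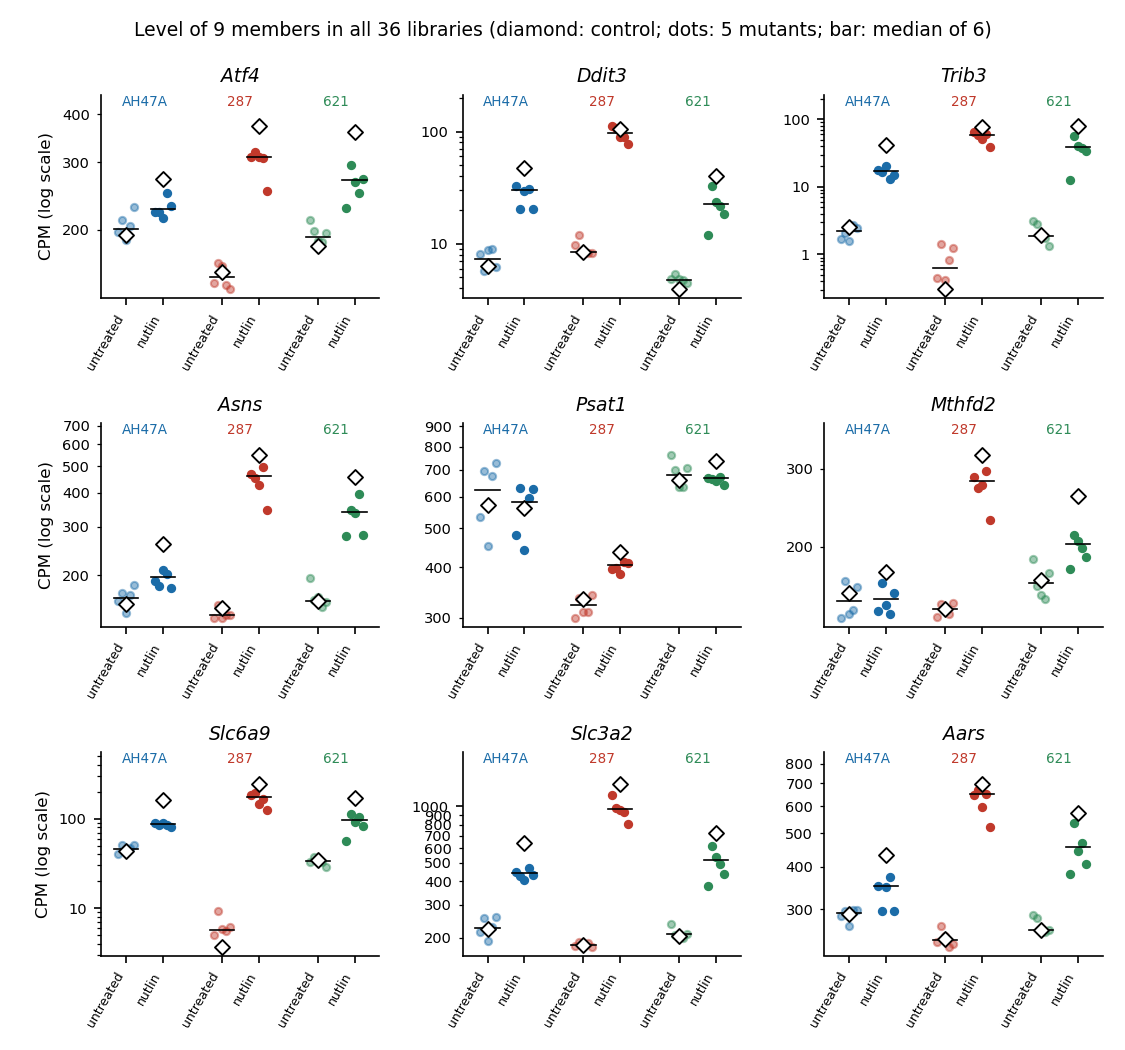
Level of 9 members (CPM, log axis) in each of the 36 libraries by line and treatment, with the control as a diamond, the 5 mutants as dots from left to right G280, I192S, R246Q, R270H and V170M, and the median of 6 as a bar. Slc6a9 rises from 3.65 to 9.36 CPM untreated to 127 to 245 CPM after nutlin in line 287. The control is the highest of the 6 nutlin libraries of each line for Atf4, Trib3, Asns, Mthfd2, Slc6a9, Slc3a2 and Aars.

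The size of the response differed between lines. An F test over the 3 lines called 33 of 39 members (60.3% of all genes), and 31 of the 35 of at least 10 CPM. The response was higher in 287 than in AH47A for 31 members and lower for 0 (46.9% of genes called, 24.3% higher and 22.6% lower), higher in 621 than in AH47A for 15 and lower for 3 (31.6% called, 15.8% in each direction), and lower in 621 than in 287 for 27 and higher for 1 (41.4% called, 21.5% lower and 19.9% higher). The highest of the 3 responses was in 287 for 34 members, in 621 for 4 and in AH47A for 1, and the order 287, 621, AH47A held for 23 of 39. The 6 without a called difference were Psph, Slc7a3, Slc38a2, Nupr1, Wars and Lars. Summed myeloid markers rose with nutlin in every line, from medians of 6.94, 18.0 and 5.06 to 14.6, 41.7 and 11.1 CPM in AH47A, 287 and 621, with 1 to 3 of the 6 at 0 (S100a8 in every line). Summed T cell markers went from a median of 12.9 to 20.8 CPM in 287, with 3 or 4 of 7 at 0. Their medians went from 27.1 to 21.7 CPM in AH47A and from 0.62 to 0.53 in 621. Their part in the responses was not tested.

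With the line as the unit (n = 3 lines, counts summed over constructs), 13 members rose and none fell of 40 tested, where 9.85% of all genes were called (6.91% higher). A further 15 had an unadjusted p under 0.05 only, 28 in all. The 13 were Ddit3 (log2 2.60 ± 0.25, adjusted p = 0.00238), Cebpb (1.89 ± 0.20, adjusted p = 0.0017), Ppp1r15a (2.03 ± 0.22, adjusted p = 0.00266), Trib3 (4.55 ± 0.52, adjusted p = 0.0164), Nupr1, Chac1, Cebpg, Asns, Cth, Slc3a2 (1.62 ± 0.26, adjusted p = 0.0184), Slc7a1, Slc7a3 and Aars, of which 10 average at least 10 CPM. Atf4 (0.59 ± 0.17, adjusted p = 0.0638), Atf3 (4.71 ± 1.0, adjusted p = 0.0978), Gpt2 (1.56 ± 0.42, adjusted p = 0.0861) and Slc6a9 (2.41 ± 0.87, adjusted p = 0.215) were among those not called. This count was 0 without the block for line, 35 with all 36 libraries and line as an additive term, 29 with only the 6 control libraries, 7 without 621 and 12 without 287. Without 621, Trib3 (adjusted p = 0.245), Asns (0.121), Chac1 (0.127) and Aars (0.0945) were among those lost, and without 287 Asns (0.0508), Chac1 (0.191) and Aars (0.0772).

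To ask whether the mutant proteins changed these levels, the mean of the 5 mutants was set against the control over the 3 lines. Before nutlin no member was called by edgeR or DESeq2 (0 of 39, with 0.0162% of all genes called and 1 member at an unadjusted p under 0.05), and the median difference was 0.05. That member was Chac1, higher by 1.53 ± 0.37 (adjusted p = 0.282). Under nutlin, 29 of 39 members were called lower in the mutants and none higher, and all 39 estimates were below 0, where 16% of all genes were called (8.76% lower, 7.22% higher). The median log2 difference was -0.38, against 0.00 over all genes. Of the 35 members of at least 10 CPM, 28 were called lower. The called members were 7 of 11 stress regulators, 4 of 4 other synthesis genes, 2 of 6 serine and one-carbon genes, 5 of 6 transporters and 11 of 12 synthetases.

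In the library values, the control stood above the mutants. Slc6a9 was at 160.0 CPM in the nutlin control of AH47A and at 90.3, 84.2, 90.2, 86.2 and 80.9 in G280, I192S, R246Q, R270H and V170M. In 287 it was at 245 in the control and 184, 193, 146, 165 and 127 in the mutants, and in 621 at 172 and 56.4, 113, 90.9, 103 and 83.5. No mutant library reached the control of its line, and the mean difference was -0.81 ± 0.12 (adjusted p = 3.93e-05). Trib3 was at 42.0 CPM against 17.9, 16.8, 20.2, 13.2 and 14.8 in AH47A, at 78.0 against 65.4, 58.2, 50.2, 60.6 and 39.3 in 287, and at 79.3 against 12.8, 56.3, 40.7, 37.3 and 34.3 in 621 (-1.01 ± 0.22, adjusted p = 0.00212). Asns was at 259.7 CPM against 191, 182, 209, 202 and 180.0 in AH47A, at 549 against 469, 452, 425, 494 and 346 in 287, and at 456 against 278, 345, 338, 394 and 281 in 621 (-0.42 ± 0.07, adjusted p = 0.000114). Atf4 was at 271 CPM against 223, 222, 215, 249.8 and 231 in AH47A, at 373 against 309, 319, 309, 308 and 252 in 287, and at 358 against 228, 294, 266, 249.97 and 271 in 621 (-0.34 ± 0.07, adjusted p = 0.000769). V170M was the lowest of the 5 in 287 for each of these 4 genes, and G280 the lowest in 621.

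Ddit3 was lower by -0.62 ± 0.17 (adjusted p = 0.0127) with overlap in 287, where the control was at 105 CPM and the mutants at 77.1 to 112. Its call was lost without AH47A (adjusted p = 0.151), without 621 (0.0756), and without the nutlin control of either (0.146 and 0.12), and that of Trib3 was lost without AH47A (0.119). Slc3a2 was at 638, 1317 and 719 CPM in the controls and at 408 to 468, 803 to 1145 and 378 to 615 in the mutants of AH47A, 287 and 621 (-0.52 ± 0.09, adjusted p = 0.000183), and Gpt2 at 63.2, 122 and 101.7 against 38.9 to 45.03, 80.1 to 101 and 37.1 to 70.3 (-0.62 ± 0.11, adjusted p = 0.00014). Neither overlapped in any line. Atf5 was lower by -0.62 ± 0.15 (adjusted p = 0.00367, and 0.0699, 0.0698 and 0.1 without AH47A, 287 or the nutlin control of AH47A), and Mthfd2 by -0.29 ± 0.06 (adjusted p = 0.00193, and 0.0874 and 0.0539 without 621 or its nutlin control). Cebpb, Cth and Cebpg were lower by -0.63, -0.61 and -0.52, and Slc7a3 by -1.13 ± 0.32 (adjusted p = 0.0165). For Slc7a3, 11 of 15 mutant libraries lay below the control of their line, while in 287 the control was at 1.35 CPM and the mutants at 1.33 to 2.16, with 1 of 5 below it. The synthetases were lower by -0.40 (Sars) to -0.20 (Eprs), Wars among them (-0.30 ± 0.07, adjusted p = 0.00291), and Lars was not called (-0.13 ± 0.06, adjusted p = 0.171). The nutlin response of Wars was not called in any line as a mean over all constructs. In the control alone, Wars changed by a log2 of -0.001, 0.26 and 0.46 in AH47A, 287 and 621. Its response was below that of the control in 3, 5 and 5 mutants of these lines. The enzymes of the serine pathway had small estimates, with Psat1 at -0.10 ± 0.08 (adjusted p = 0.426), Phgdh at -0.15 ± 0.08 and Psph at -0.02 ± 0.10, all not called. Atf3 (-0.38 ± 0.17, adjusted p = 0.136), Chac1 (-0.51 ± 0.19, adjusted p = 0.0596), Ppp1r15a, Nupr1, Aldh1l2 and Slc7a5 were not called either. In 22 of 39 members all 15 mutant libraries lay below the control of their line, a pattern that 5.19% of all genes showed. In the untreated libraries it held for 0 of 39 (0.495% of genes).

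**Figure D3:**
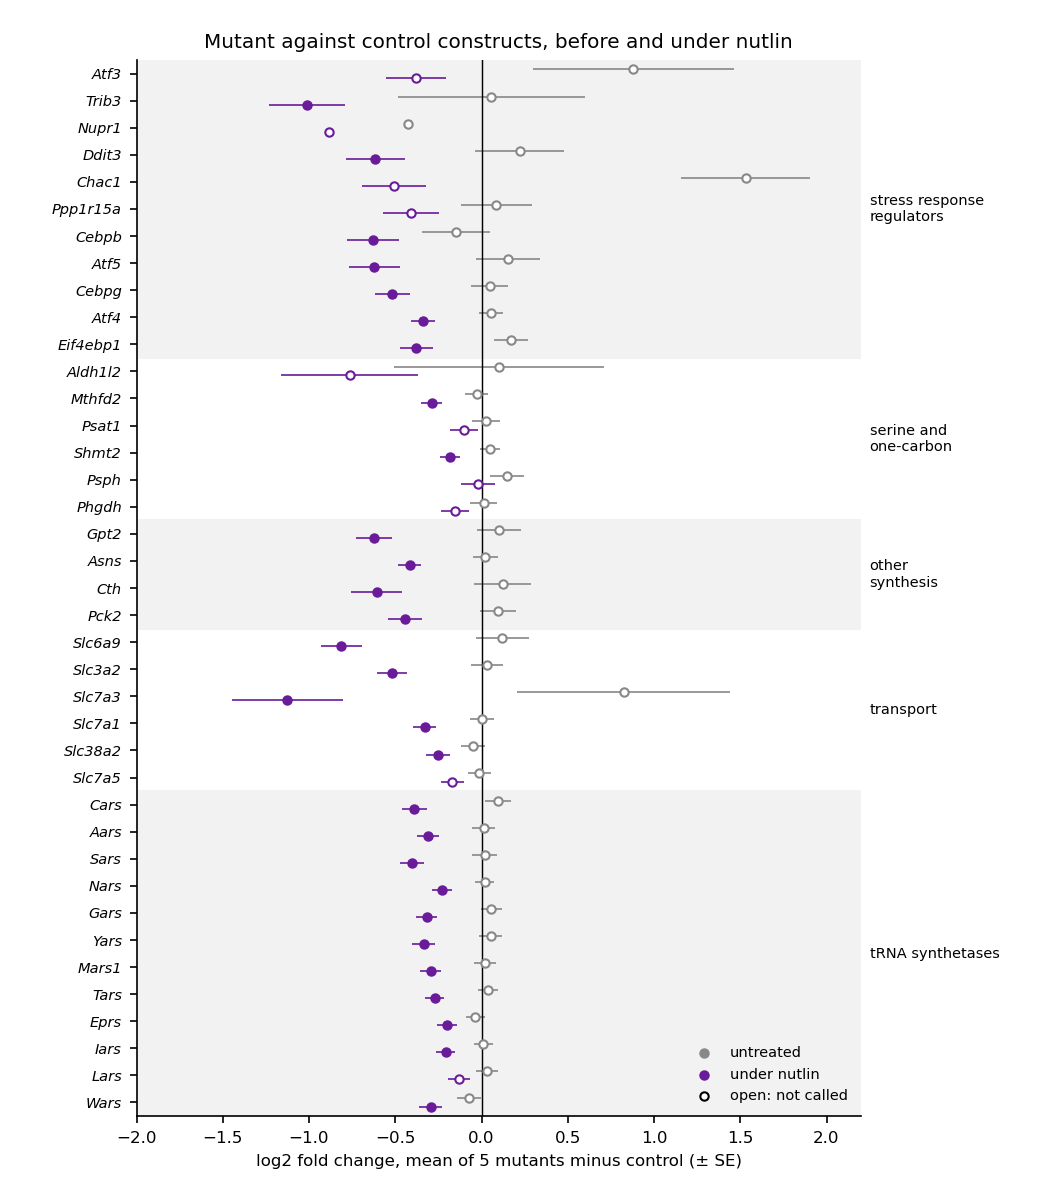
Difference (log2 fold change, ± SE) between the mean of 5 mutants and the control in untreated and nutlin libraries for the 39 tested members, by role, with open circles where the adjusted p was not under 0.05. Under nutlin all points lie left of 0, as far as -1.13 for Slc7a3, while the untreated points scatter about 0 and none is called. Nupr1 is drawn without an SE.

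The difference in response, mutants minus control, was called lower for 16 of 39 members and higher for none, where 3.38% of all genes were called (1.53% lower, 1.85% higher). The median was -0.42. Among those called, Chac1 had the largest difference (-2.04 ± 0.42, adjusted p = 0.00617), followed by Slc6a9 (-0.93 ± 0.19, adjusted p = 0.00964) and Gpt2 (-0.73 ± 0.16, adjusted p = 0.0128), and Asns (-0.44 ± 0.10, adjusted p = 0.0128) and Atf4 (-0.39 ± 0.10, adjusted p = 0.0216) were among them. For Chac1 most of this difference lay in the untreated libraries, where controls were at 0.521 to 1.78 CPM and the mutants estimated higher by 1.53 ± 0.37, against -0.51 ± 0.19 under nutlin, neither of them called. Both counts rest on 3 control libraries per treatment. Under nutlin, 17 members were called without the control of 621 and 19 without line 621, and with line as an additive term only 1 (Wars), with no term for line 0. For the response difference, 0 were called without 287, without the untreated control of AH47A, with the additive term or with no term for line, 1 without AH47A or 621, 6 without the untreated control of 287, 3 without that of 621 and 2 without the nutlin control of 621. Cdkn1a and Mdm2, targets of p53, were also lower in the mutants under nutlin (-0.87 ± 0.13 and -0.74 ± 0.10). Summed myeloid markers were lower than in the control of the line in 13 of 15 mutant nutlin libraries and in 1 of 15 untreated ones. Under nutlin they were at 26.9 CPM in the control and 9.22 to 18.7 in the mutants of AH47A, at 46.9 and 34.3 to 53.7 in 287, and at 14.6 and 5.98 to 15.4 in 621. Their part in the differences between mutants and control was not tested.

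Each mutant was then compared with the same 3 control libraries, so the 5 comparisons share their controls and their values are only set side by side. Under nutlin, V170M had 27 members called lower (17.6% of genes called, 9.84% lower and 7.76% higher), G280 25 (10.5%, 5.11% and 5.39%), R246Q 19 (6.06%, 2.78% and 3.28%), R270H 11 (3.64%, 1.68% and 1.96%) and I192S 4 (2.66%, 1.5% and 1.16%), with no member called higher in any. The medians were -0.47 in V170M, -0.40 in G280, -0.37 in R246Q, -0.30 in R270H and -0.25 in I192S. Slc6a9 was called in all 5, at -1.0 ± 0.16, -0.89 ± 0.15, -0.83 ± 0.16, -0.73 ± 0.15 and -0.61 ± 0.15 in that order. Gpt2 was also called in all 5 (-0.71, -0.77, -0.57, -0.53 and -0.56). Atf4 was at -0.40, -0.40, -0.34, -0.30 and -0.26, and was not called in I192S (adjusted p = 0.101). The members called in I192S were Asns, Slc6a9, Cebpg and Gpt2. With only the nutlin libraries fitted, 21, 12, 1, 0 and 0 members were called in the same order, and DESeq2 called 29, 25, 21, 19 and 12. With line as an additive term the counts were 1, 0, 0, 0 and 0. For V170M the count fell to 17 without 287. For G280 it fell to 0 without 621, 4 without its own nutlin library of 621 and 14 without the control's. For R246Q it was 2, 1 and 5 without AH47A, 287 and 621, 6, 2 and 11 without its own nutlin library of each, and 3 without the nutlin control of 621. For R270H and I192S single libraries moved it between 1 and 19 and between 0 and 11, and both were at 0 without AH47A.

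**Figure D4:**
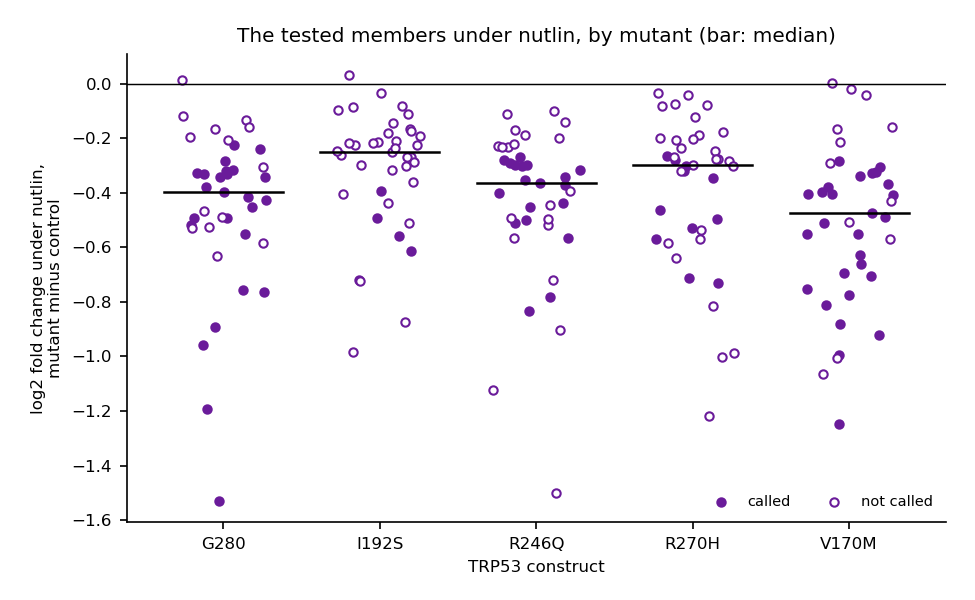
Difference (log2 fold change) between each of the 5 mutants and the control under nutlin for the 39 tested members, 1 point per member, filled where the adjusted p was under 0.05, with the median as a bar. Nearly all points lie below 0, and the medians run from -0.25 in I192S to -0.47 in V170M, all against the same 3 controls.

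The response difference was called lower for 17 members in V170M (3.64% of genes called, 1.83% lower and 1.81% higher), among them Chac1 (-2.08), Slc6a9 (-1.09), Gpt2 (-0.92), Slc3a2 (-0.73), Asns (-0.68) and Cars (-0.66). It was called for 0 members in G280, I192S, R246Q and R270H (0.179%, 0.00812%, 0.0243% and 0% of genes), where 27, 20, 19 and 14 had an unadjusted p under 0.05 and DESeq2 called 13, 1, 1 and 1. For V170M the count was 0 with line as an additive term. An F test over the 6 constructs called no member for the response (0.0162% of genes, 22 members at an unadjusted p under 0.05, 11 called by DESeq2) and none before nutlin (0.0812% of genes, 1 member at an unadjusted p under 0.05, 0 by DESeq2). These F tests took the 6 constructs together, control included, and a difference between the mutants alone was not tested.

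Other genes of the pathway were taken from lists made by function, beside which 21.4%, 36.2% and 26.4% of all genes rose and 22.2%, 35.7% and 28.6% fell in AH47A, 287 and 621. Of 16 tested genes of the eIF2 pathway, 5, 4 and 7 rose and 1, 8 and 3 fell in AH47A, 287 and 621. That list was drawn from the eIF2 kinases, eIF2 itself, the related factor eIF2B, and Ppp1r15b, Impact, Gcn1l1, Dele1 and Oma1. Eif2ak3, the kinase PERK that senses stress of the endoplasmic reticulum, rose by 0.85 ± 0.09, 1.62 ± 0.09 and 0.54 ± 0.09, while Eif2ak4, the kinase GCN2 that senses uncharged tRNA, fell in 287 (-0.42 ± 0.06). Of 20 other unfolded protein response genes, 5, 4 and 5 rose and 3, 13 and 13 fell. The chaperone gene Hspa5 fell by 0.85 in 287 on the log2 scale and the chaperone gene Calr by 1.17. A list of 11 genes held other synthetases, cytosolic or dual (also mitochondrial), with Aimp1, Aimp2 and Eef1e1, which are not synthetases. Of these 11, 2, 3 and 2 rose and 3, 6 and 1 fell. Of 17 mitochondrial synthetases 4, 3 and 4 rose and 3, 8 and 7 fell, and of 17 other one-carbon and amino acid enzymes 1, 5 and 2 rose and 5, 10 and 10 fell. Of 11 other transporters 3, 5 and 4 rose and 5 fell in each line, with Slc1a4, a carrier of alanine and serine, up by 0.80 ± 0.09, 1.91 ± 0.09 and 1.04 ± 0.09. Of 9 NRF2 targets, which answer oxidative stress, 4, 1 and 2 rose and 0, 6 and 2 fell. The medians of these 7 lists lay between -0.72 and 0.19 over the 3 lines. Mutants against control under nutlin, 3 of 11 other transporters were lower and 0 higher, 1 of the 11 genes in the list of cytosolic and dual synthetases was lower (Vars, -0.26 ± 0.06), and in the other 5 lists at most 3 were called in either direction.

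**Figure D5:**
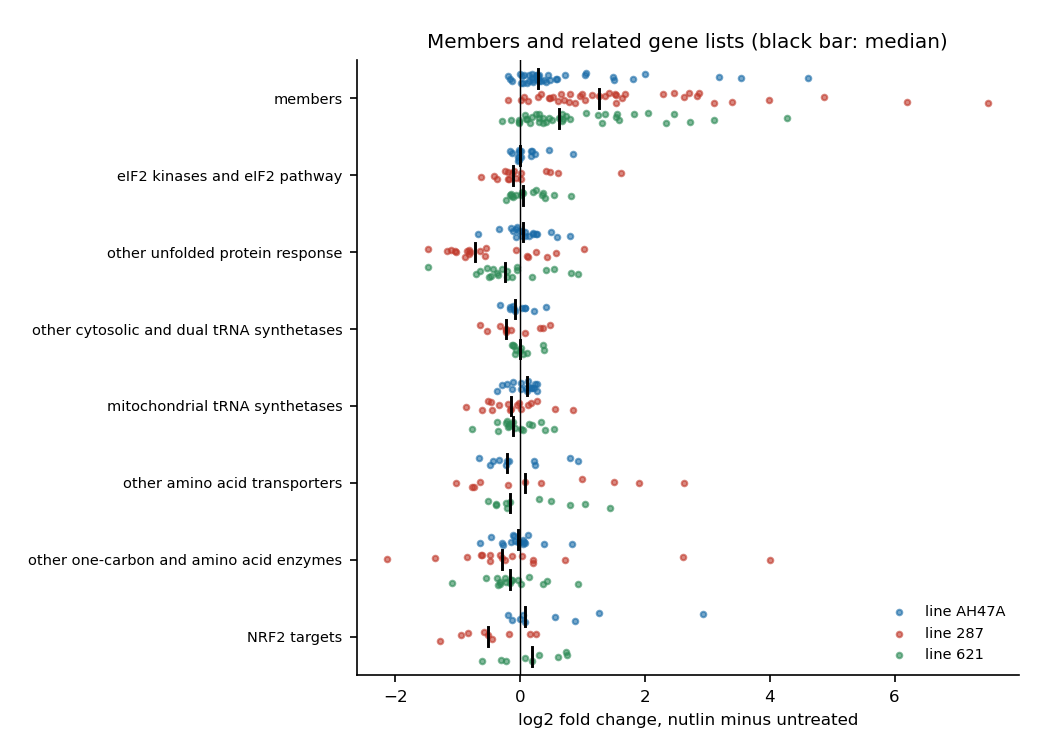
Nutlin response (log2 fold change) of the tested members and of 7 related gene lists in lines AH47A, 287 and 621, 1 point per gene, with the median as a black bar. The medians of the members are 0.28, 1.26 and 0.62, and those of the related lists lie between -0.72 and 0.19.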

How the data were processed

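RNA from 36 cultures was sequenced, and the authors deposited gene counts, whole numbers per gene and library. Per the submitters' processing notes, base calls were converted with bcl2fastq 1.8.4, counting used featureCounts, and the build was mm10 (GRCm38); which aligner, annotation and strand option were used is not stated there or in the labels. The 36 counts files of single samples matched the table of the series.

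Rows without a symbol (859 rows, 0.303% of counts) were kept under their gene identifier. Genes passing edgeR's filter (minimum count 10, 12 groups) were tested with edgeR 4.0.16 (R 4.3.3), TMM scaling and the quasi-likelihood test, with terms for construct by treatment and line by treatment over all 36 libraries (20 residual degrees of freedom). P-values were adjusted by Benjamini-Hochberg over 12321 genes and called under 0.05. The ± values are standard errors. For the response over 3 lines, counts were summed over constructs (12986 genes, line as block, 2 residual degrees of freedom). CPM are counts per 1000000 counts, with TMM-scaled totals. The replicate number in the labels is the cell line: in all 198 pairs, libraries of a line deviated together (r = 0.629 to 0.929), so line enters as the pairing block. Beyond Atf4, Ddit3 and Asns, genes with full values were the 2 largest mean line responses and the smallest F test p per role, and the 3 smallest p of each F test between constructs. Members and lists were chosen with earlier results of these data known.

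On simulated counts with the same design, 81% of 1.5-fold and 92% of 2-fold changes were recovered for the response in AH47A (12270 genes), 67% and 80% for the difference of the response between lines (12270 genes), 57% and 86% for the response difference of mutants and control (12270 genes), and 94% and 100% for the response over 3 lines (12080 genes). Of the calls, 5.58%, 7.55%, 9.49% and 5.81% (same order) fell on genes left unchanged in the simulation. In the measured counts, edgeR did not call Atf3 (log2 4.71 ± 1.0, adjusted p = 0.0978) or Slc6a9 (2.41 ± 0.87, adjusted p = 0.215) over 3 lines. Whether the recovery over 3 lines holds for members whose response differed between lines was not tested. Alternatives were RLE size factors, no filter, DESeq2 1.42.0, other line terms, subsets of libraries, and each library or line left out. Figures and sequence searches used Python 3.11.15, sequences are from RefSeq, and exon overlaps were read from the GENCODE mouse annotation of GRCm38. Depth of 5404113 to 10718302 counts limits the members under about 10 CPM.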

Additional observations from a re-analysis of the deposited data

Results flagged for a closer look

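The size of the nutlin response differed between the 3 lines for each of the 15 members described with full values, by the F test of the line by treatment terms (edgeR, adjusted over all genes, of which 60.3% were called in the same test). Among stress regulators the adjusted p was 3.53e-08 for Atf4, 8.42e-09 for Atf3, 1.08e-09 for Atf5, 0.000158 for Ddit3, 0.00024 for Trib3 and 3.96e-08 for Chac1. For the enzymes it was 1.56e-11 for Asns, 8.2e-12 for Gpt2, 1.23e-09 for Mthfd2, 0.0017 for Aldh1l2 and 0.000898 for Psat1. For the transporters it was 1.12e-13 for Slc6a9 and 3.09e-10 for Slc3a2, and for the synthetases 5.77e-11 for Cars and 1.9e-10 for Aars. Atf5, Gpt2, Mthfd2, Slc6a9 and Cars were named because they had the smallest p of this same test in their role, and others for the size of their mean response, so that 15 of 15 is a description and no support. The largest response was in 287 for 14 of these 15, while Chac1 rose by 3.11 on the log2 scale in both 287 and 621. Each line gave 6 libraries per treatment, all of different constructs, and no label names a second culture of the same line and construct, so a difference between lines and a difference between culture sessions of the lines cannot be told apart.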

How the results depend on the processing

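Among the called changes of the 15 members with full values, none changed direction under the alternatives run. This covers their responses by line and over 3 lines and the mean of the mutants against the control. Changes not called and the other members are not covered by this statement. With RLE size factors, no filter or DESeq2, counts of members called stayed within 1.5 times except the F test of the response between constructs, 0 in edgeR and 11 in DESeq2, and some counts of single mutants (I192S 8 with RLE, 2 with no filter and 12 with DESeq2 against 4, R270H 7 with no filter and 19 with DESeq2 against 11, and response differences of 13 in G280 and 1 each in I192S, R246Q and R270H with DESeq2 against 0). The response over 3 lines (13 members) was 0 with no replicate block, 35 with all 36 libraries and line as an additive term, 29 with only the 6 control libraries, and 10 with RLE or 12 with no filter, both chosen after seeing the data. Mutants against control under nutlin (29) was 1 with an additive line term, 0 with no replicate block and 22 with only nutlin libraries. The mean response difference (16) was 0 with the additive term and 0 with no replicate block.

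Leaving out single libraries or lines gave 28 to 32 (AH47A), 36 to 38 (287), 30 to 34 (621), 7 to 15 (over 3 lines), 33 to 35 (between lines), 21 to 27, 15 to 21 and 24 to 32 (untreated 287 against AH47A, 621 against AH47A and 621 against 287), 0 to 0 (mutants before nutlin), 17 to 31 (mutants under nutlin), 0 to 18 (mean response difference), and 0 to 4 and 0 to 0 (F tests between constructs for the response and before nutlin). For single mutants under nutlin the ranges were 17 to 29 (V170M), 0 to 28 (G280), 1 to 23 (R246Q), 0 to 19 (R270H) and 0 to 11 (I192S), and for their response differences 0 to 23, 0 to 15, 0 to 1, 0 to 2 and 0 to 1. The cause of these changes was not tested.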
